A study of Triticum aestivum with 4 samples.

Results

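Obtusifoliol 14-alpha demethylase, the cytochrome P450 called CYP51, was followed here in roots of bread wheat grown from seeds that had been held under hypergravity. The members are the rows of the deposited transcript table whose best protein hit carries that enzyme's name in an Aegilops, Triticum, Hordeum or Brachypodium species (pooid grasses, the subfamily of wheat) and whose values could be resolved per library. They were 11 transcripts in 6 assembled genes, out of 91482 transcripts with values per library and 147297 in the whole table. All 11 best hits were in goatgrass (Aegilops tauschii), and each assembled gene had its own best-hit protein. The hypergravity group was 2 libraries of roots of 45-day-old plants of genotype UAS-375 whose seeds had been kept at 10 g for 12 h before sowing. The control group was 2 libraries from untreated seeds of the same genotype and age, grown under the same greenhouse conditions in pipes. The labels leave it unsaid whether different plants went into the libraries of 1 group, so every spread and p-value refers to these libraries only.

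CYP51 removes a methyl group at carbon 14 of the sterol ring, and in plants its usual substrate is obtusifoliol. The reaction lies midway between cycloartenol, the first cyclic plant sterol precursor, and the membrane sterols sitosterol, stigmasterol and campesterol, and campesterol is also the starting point of brassinosteroid hormones. Grasses carry a conserved form of the enzyme and further, divergent copies, 1 of which in oat serves the synthesis of defensive triterpenes in roots. The protein names in the table do not tell these forms apart.

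A pair of members stood about 10 times higher in hypergravity roots than in control roots, while the most abundant member gene was nearly level. The pair, the single transcripts of the assembled genes TRINITY_DN1703_c0_g1 and TRINITY_DN473_c0_g2, had been singled out for that difference in the same 4 libraries. The contrast between the groups is therefore given for all members as a description, without p-values, and where limma's calls of members are mentioned, no support is drawn from them. Values are normalised read counts, that is, counts divided by a size factor of the library. In bulk tissue, fewer cells of a type and less RNA per cell cannot be told apart.

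TRINITY_DN1703_c0_g1_i1 (1899 bases, named as a demethylase-like isoform X1) had 885 and 964 normalised counts in the hypergravity libraries a and b, against 95.6 and 85.5 in the control libraries a and b. Its log2 fold change was 3.34 ± 0.13 (SE), a ratio of means of 10.2. TRINITY_DN473_c0_g2_i1 (1948 bases, demethylase-like) had 1462 and 1645 normalised counts in hypergravity, against 166 and 154 in control, with a log2 fold change of 3.27 ± 0.11 and a ratio of 9.72. In both transcripts the lowest hypergravity library was far above the highest control library, and in neither was any library near 0, the lowest raw counts being 91 and 164 in control b. The pair kept nearly the same proportion to each other in every library, since the level of TRINITY_DN473_c0_g2_i1 was 1.65 and 1.71 times that of TRINITY_DN1703_c0_g1_i1 in hypergravity and 1.73 and 1.80 times in control.

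Among all 91482 transcripts the pair ranked 24 and 33 by log2 fold change, and 12 and 16 among the 59378 with a pooid best hit. By limma, with Benjamini-Hochberg adjustment over all transcripts, 3 of 11 members were called higher, where 13.5% of all transcripts were called higher, and 1 was called lower, where 11.9% were. In either direction, 25.5% of all transcripts were called. Since the members were chosen on this contrast, nothing is read from these counts. The other 9 members had a median log2 fold change of -0.18, against -0.01 for all transcripts.

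**Figure D1:**
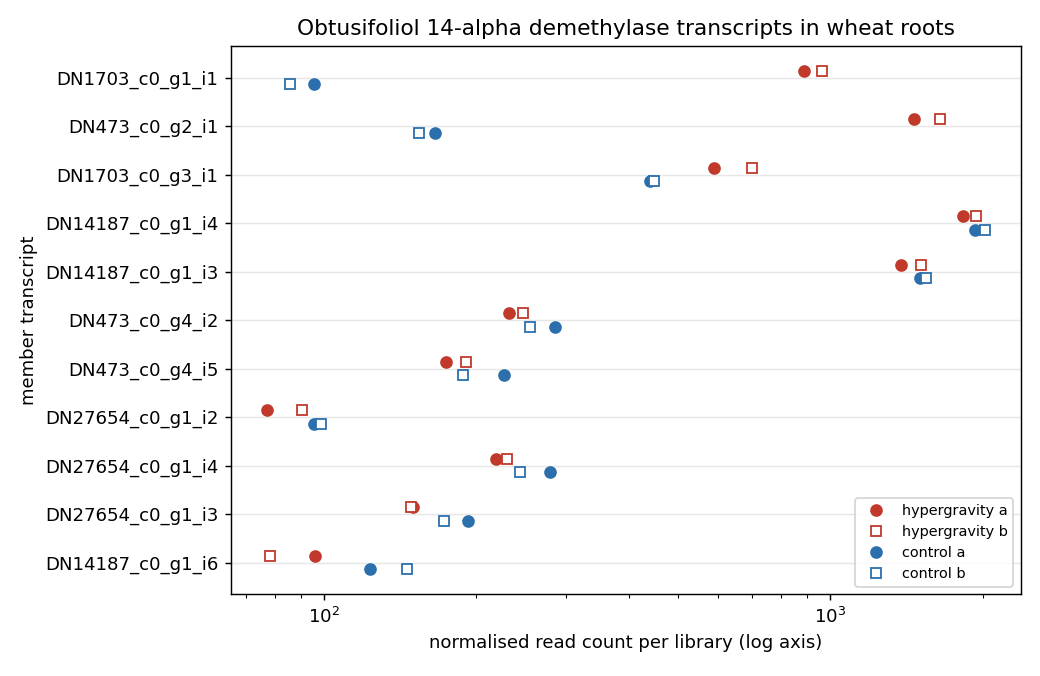
Normalised read count (log axis) of the 11 demethylase transcripts, 1 row per transcript, with the hypergravity libraries in red above the control libraries in blue and libraries a and b as filled circles and open squares. The top 2 rows average 925 and 1554 in hypergravity and 90.6 and 160 in control, while the rows of TRINITY_DN14187_c0_g1_i3 and i4 overlap between the groups.

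The third member called higher, TRINITY_DN1703_c0_g3_i1 (1724 bases), had 589 and 699 normalised counts in hypergravity, against 441 and 448 in control. Its groups did not overlap, but its log2 fold change of 0.53 ± 0.12 was far smaller than that of TRINITY_DN1703_c0_g1_i1, with which it shares the read cluster DN1703 in the Trinity-style identifiers of the assembly. Without hypergravity b this transcript was not called, and its log2 fold change was 0.41. A further transcript of the cluster, TRINITY_DN1703_c0_g2_i2, has its best hit in rice and so is no member. It had 566 and 633 normalised counts in hypergravity, against 283 and 272 in control, a log2 fold change of 1.11 ± 0.12. These 3 assembled genes of the cluster were all higher in both hypergravity libraries than in either control library, by very unequal amounts. Of all transcripts, 31.9% had this arrangement. Since TRINITY_DN1703_c0_g1 had been singled out for its difference, nothing is read from this count.

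TRINITY_DN14187_c0_g1 supplied the most reads of any member gene and is the only one whose best hit is named as the demethylase itself rather than as demethylase-like. Its isoform i4 (1629 bases) had 1827 and 1939 normalised counts in hypergravity, against 1930 and 2016 in control, and its isoform i3 (1249 bases) had 1379 and 1506 in hypergravity, against 1503 and 1543 in control. The groups overlapped in both isoforms, whose log2 fold changes were -0.07 ± 0.09 and -0.08 ± 0.09. The short isoform i6 (917 bases) had 95.9 and 78.3 normalised counts in hypergravity, against 123 and 146 in control, a log2 fold change of -0.62 ± 0.20, and it was the member called lower. That call was absent without control b and without hypergravity b. Isoform i6 made up only 2.56% ± 0.48 of the gene's reads in hypergravity and 3.70% ± 0.33 in control (SD, n = 2 libraries each), and isoforms of 1 gene share reads that the counting had to divide.

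The remaining pair of genes was slightly lower in hypergravity and held no call. The 3 isoforms of TRINITY_DN27654_c0_g1 summed to 446 and 469 normalised counts in hypergravity, against 568 and 515 in control. Isoform i4 (1896 bases) had 219 and 230 normalised counts in hypergravity, against 280 and 243 in control, and isoform i3 (1921 bases) had 150 and 148 in hypergravity, against 192 and 173 in control. Isoform i2 had 77.2 and 90.6 in hypergravity, against 95.6 and 98.6 in control. Their log2 fold changes lay close together, at -0.29 ± 0.16 for i3, -0.22 ± 0.14 for i4 and -0.21 ± 0.20 for i2, and in all 3 both hypergravity libraries were below both control libraries. Isoform i2, at 640 bases the shortest member, is the only one for which the table lists no cytochrome P450 domain. TRINITY_DN473_c0_g4, from the same read cluster as the strongly changed TRINITY_DN473_c0_g2, had isoform sums of 406 and 438 in hypergravity, against 513 and 442 in control. Isoform i2 (1936 bases) had 231 and 247 normalised counts in hypergravity, against 286 and 255 in control, and isoform i5 (1536 bases) had 174 and 190 in hypergravity, against 227 and 188 in control. Its isoforms i2 and i5 had log2 fold changes of -0.17 ± 0.14 and -0.18 ± 0.16, and i5 overlapped between the groups.

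Counted over the 11 members, both hypergravity libraries lay above both control libraries in 3 and below them in 5. Over all transcripts these arrangements made up 31.9% and 32%. Within the 3 genes with several isoforms, the division of reads among isoforms was close in the 2 groups. Isoform i4 took 55.2% ± 0.22 of TRINITY_DN14187_c0_g1 in hypergravity and 54.3% ± 0.10 in control, and isoform i2 took 56.8% ± 0.42 of TRINITY_DN473_c0_g4 in hypergravity and 56.7% ± 1.25 in control (SD, n = 2 libraries each).

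The makeup of the family differed between the groups mainly through the leading pair. The pair had been singled out for its difference in these libraries, so its share is a description only. Summed over all 11 members, the family had 7090 and 7738 normalised counts in hypergravity, against 5338 and 5350 in control, a ratio of 1.39 between the means. The pair contributed 33.1% and 33.7% of that sum in hypergravity and 4.89% and 4.48% in control. Without the pair the other 9 members summed to 4743 and 5129 in hypergravity, against 5077 and 5110 in control, and these ranges overlap. TRINITY_DN14187_c0_g1 made up 46.1% ± 0.73 of the family in hypergravity and 67.9% ± 1.87 in control (SD, n = 2 libraries each), although its own sum was 3413 ± 157 normalised counts in hypergravity and 3630 ± 106 in control.

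**Figure D2:**
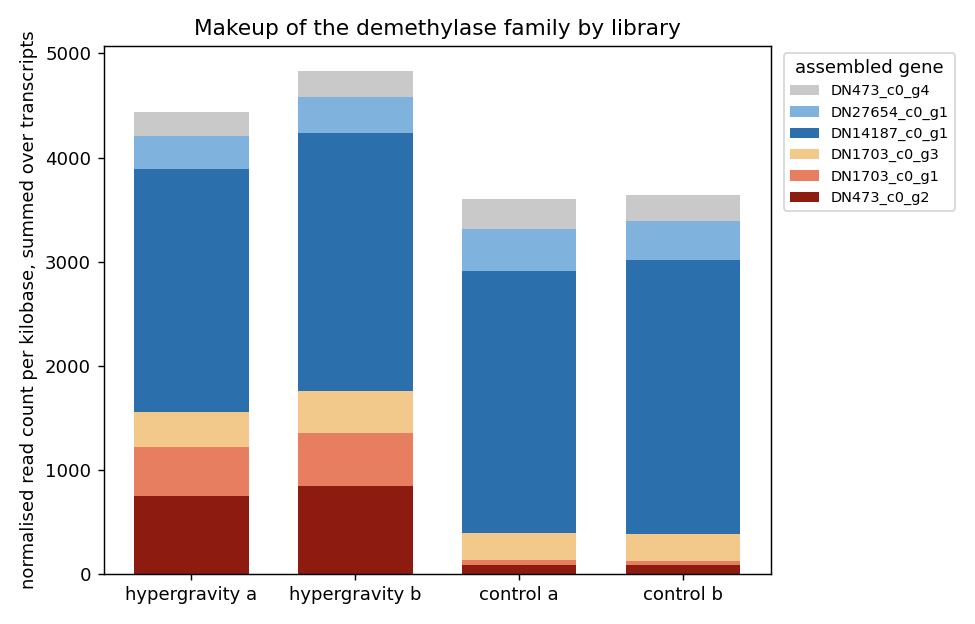
Normalised read count per kilobase of transcript length, summed over the isoforms of each of the 6 assembled genes and stacked by library, with the hypergravity libraries left of the control libraries. The bars reach 4436 and 4831 in hypergravity and 3606 and 3642 in control, and the dark red and salmon blocks of the leading pair make up 27.4% and 28.0% of them in hypergravity and 3.76% and 3.41% in control.

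Levels of different members are compared per kilobase of transcript length. In hypergravity, isoforms i4 and i3 of TRINITY_DN14187_c0_g1 led with 1156 ± 48.6 and 1155 ± 72.4 normalised counts per kilobase and did not differ beyond their spread. TRINITY_DN473_c0_g2_i1 came next at 798 ± 66.6, then TRINITY_DN1703_c0_g1_i1 at 487 ± 29.2 and TRINITY_DN1703_c0_g3_i1 at 374 ± 45.1 (SD, n = 2 libraries), each apart from its neighbours in both libraries. The other 6 members lay between 77.7 and 131 per kilobase, and the 4 highest of these overlapped with their neighbours. In control the same isoforms of TRINITY_DN14187_c0_g1 led with 1211 ± 37.5 and 1219 ± 23.1 per kilobase. There TRINITY_DN1703_c0_g3_i1 was next at 258 ± 3.01, and the leading pair held ranks 10 and 11 of 11, at 82.1 ± 4.21 and 47.7 ± 3.78. In hypergravity the pair held ranks 3 and 4.

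The deposited table holds 10 further rows of the enzyme that carry only 1 FPKM value per group and were not tested. All 10 had a higher FPKM in hypergravity, and 68.3% of all such rows did. Of the 5 with a goatgrass best hit, the highest was TRINITY_DN13539_c0_g1_i5, at 4.51 FPKM in hypergravity and 0.42 FPKM in control. Its neighbour isoform i3 had 3.72 FPKM in hypergravity and 0.60 FPKM in control, and both have the same best-hit protein as TRINITY_DN1703_c0_g1_i1. The other 3 lay between 1.29 and 1.75 FPKM in hypergravity and between 0.26 and 0.47 FPKM in control. Of such rows with a pooid best hit, 52.3% were higher in hypergravity. Members, by contrast, had at least 74 reads in every library.

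The other 5 of these rows have best hits in panicoid grasses (sorghum and Panicum hallii), and 4 of them are listed at 0 in control. The highest were TRINITY_DN473_c0_g3_i1, at 15.32 FPKM in hypergravity, and TRINITY_DN473_c0_g1_i1, at 10.92 FPKM in hypergravity, both listed at 0 in control and both from the read cluster of TRINITY_DN473_c0_g2_i1. Rows with panicoid hits behaved in this way across the table. Of 13329 such rows with FPKM values, 96.7% were higher in hypergravity and 84.4% were above 0 in hypergravity and listed at 0 in control, against 11.1% of the pooid rows. Their FPKM values summed to 77358 in hypergravity and 4972 in control. Among transcripts with values per library, panicoid hits took 2.79% and 2.71% of the counts in hypergravity and 2.66% and 2.69% in control. No count in these rows was under 9, so transcripts absent from control could not be among them, and these shares do not cover such transcripts. Of the 2544 panicoid transcripts with values per library, 19.3% were called higher and 10.8% lower by limma. For pooid transcripts the shares were 13.2% and 13%. The table gives no identity between a transcript and its hit, and the part of any RNA from another grass in the values of the leading pair was not tested. The other member-like rows with values per library had best hits in sorghum, at 51.1 and 44.3 normalised counts in hypergravity against 66.1 and 67.6 in control, and in the spikemoss Selaginella, at 103 and 119 in hypergravity against 80.9 and 69.5 in control.

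The remainder of the sterol pathway was examined through 22 lists of enzyme names, counted among pooid best hits with members left out. By stage, 9 of 16 transcripts of the mevalonate route rose and 1 fell, and 4 of 7 of the squalene enzymes rose and 0 fell. Of the sterol enzymes before the demethylase, 3 of 13 rose and 0 fell. Of those that act both before and after it, 2 of 11 rose and 1 fell. Of the later enzymes of sterol synthesis itself, 0 of 22 rose and 6 fell. Further on, 4 of 33 transcripts of brassinosteroid enzymes rose and 9 fell, and 3 of 32 of sterol conjugation rose and 4 fell. Of the P450 reductase, 6 of 10 rose and 0 fell. Over all lists, 31 of 145 transcripts rose and 21 fell by limma (adjusted p under 0.05), where 13.2% of all pooid transcripts were called higher and 13% lower. The count that rose was 14 without control a, 20 without control b and 17 without hypergravity b, and the count that fell was 12 without control b. Summed per assembled gene, 13 of 65 rose and 9 fell, where 14.3% of all assembled genes were called higher and 12.3% lower. The median log2 fold change was 0.03 over the lists, against -0.02 over all pooid transcripts.

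Farnesyl diphosphate synthase makes the precursor of squalene. Of its 12 transcripts 9 rose and 0 fell, where 13.2% of all pooid transcripts were called higher and 13% lower. The count that rose was 6 without control a, without hypergravity a or without hypergravity b, and none of the 12 fell at an unadjusted p under 0.05. TRINITY_DN17459_c1_g2_i1 had 120 and 132 normalised counts in hypergravity, against 44.4 and 32.9 in control (log2 fold change 1.69 ± 0.23, adjusted p = 0.000511), and TRINITY_DN17459_c0_g1_i2 had 116 and 109 in hypergravity, against 55.2 and 54.5 in control (1.02 ± 0.20, adjusted p = 0.00433). Upstream of it, 1 of 4 transcripts of HMG-CoA reductase, which sets the flow into the mevalonate route, fell, and none rose (at an unadjusted p under 0.05, 3 lower and 0 higher). That transcript, TRINITY_DN24798_c0_g1_i1, had 102 and 76.2 normalised counts in hypergravity, against 163 and 242 in control (-1.16 ± 0.23, adjusted p = 0.0047). Of 5 squalene synthase transcripts 3 rose, all of TRINITY_DN5265_c0_g2, but only 1 without control a. Its isoform i1 had 1566 and 1465 normalised counts in hypergravity, against 1054 and 1089 in control (0.50 ± 0.09, adjusted p = 0.00303), and isoform i5 (0.39 ± 0.09, adjusted p = 0.00813) was not called without control a. Of 2 squalene monooxygenase transcripts, for the enzyme that adds the oxygen needed for ring closure, TRINITY_DN7159_c0_g1_i1 rose, with 919 and 1004 normalised counts in hypergravity against 644 and 576 in control (0.66 ± 0.11, adjusted p = 0.00149). Transcripts with the opposite sign to the calls of their list were picked out after their values were seen. For HMG-CoA reductase this was TRINITY_DN24798_c0_g2_i1, at a log2 fold change of 0.38 and not called. For the squalene enzymes they were those of the other squalene monooxygenase gene, TRINITY_DN5487_c2_g1, at -0.53, and of the squalene synthase-like gene TRINITY_DN12978_c0_g2, at -0.44. Neither of these squalene enzyme transcripts was called, but at an unadjusted p under 0.05 1 squalene synthase transcript was lower.

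Within the enzyme lists, which leave out the members, the largest rises were in cycloartenol synthase and in 3-beta-hydroxysteroid dehydrogenase/decarboxylase. The former closes the first sterol ring system, and the latter works in the removal of the methyl groups at carbon 4. Of 4 cycloartenol synthase transcripts 2 rose, both of TRINITY_DN90471_c0_g1. Its isoform i2 had 512 and 524 normalised counts in hypergravity, against 73.0 and 67.6 in control (2.86 ± 0.15, adjusted p = 2.06e-06), and isoform i3 had 151 and 155 in hypergravity, against 31.6 and 31.0 in control (2.26 ± 0.21, adjusted p = 4.59e-05). The other 2, of TRINITY_DN4825_c0_g1 and picked out after their values were seen, had log2 fold changes of 0.10 and 0.13 and were not called. Of 7 dehydrogenase/decarboxylase transcripts 1 rose and 1 fell. TRINITY_DN9047_c0_g1_i2 had 839 and 832 normalised counts in hypergravity, against 120 and 116 in control (2.81 ± 0.12, adjusted p = 1.01e-06), while TRINITY_DN35845_c0_g2_i1 had 50.1 and 45.3 in hypergravity, against 70.0 and 86.4 in control (-0.70 ± 0.23, adjusted p = 0.0466). The call of TRINITY_DN35845_c0_g2_i1 was lost without control b, without hypergravity a and without hypergravity b.

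Other steps ahead of or around the demethylase were closer to level. Of 5 transcripts of sterol C-24 methyltransferase 1, the entry to alkylated plant sterols, 1 rose (TRINITY_DN2290_c0_g1_i10, 0.36 ± 0.11, adjusted p = 0.0353), and that call was lost when any 1 of the 4 libraries was left out. Of 4 transcripts of the sterol 4-alpha methyl oxidase, 1 rose (TRINITY_DN6970_c0_g1_i4, 0.59 ± 0.14, adjusted p = 0.0107), but not without control b. None of 4 cycloeucalenol cycloisomerase transcripts, for the enzyme that makes obtusifoliol, was called by limma, although at an unadjusted p under 0.05 0 were higher and 3 lower. The most abundant, TRINITY_DN9138_c0_g1_i8, had 638 and 755 normalised counts in hypergravity, against 889 and 807 in control (-0.29 ± 0.11, adjusted p = 0.0935), and without hypergravity b it was called lower (adjusted p = 0.045). The single tested transcript of another oxidosqualene cyclase, a lupeol synthase-like enzyme of triterpene synthesis (TRINITY_DN17344_c0_g1_i10), had 1046 and 891 normalised counts in hypergravity, against 970 and 1005 in control (-0.03 ± 0.11, adjusted p = 0.852).

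The later enzymes of sterol synthesis lead from the demethylase product to the membrane sterols, without hormone synthesis or conjugation. At an unadjusted p under 0.05, 2 of their 22 transcripts were higher and 10 lower. By limma's adjusted p 0 of 22 rose and 6 fell, where 13.2% of all pooid transcripts were called higher and 13% lower. The count that fell was 10 without control a, 3 without control b and 3 without hypergravity b. All 3 transcripts of the delta7-sterol C5-desaturase, from a single assembled gene, fell. TRINITY_DN16675_c0_g1_i3 had 746 and 817 normalised counts in hypergravity, against 1111 and 1206 in control (-0.57 ± 0.10, adjusted p = 0.00242), and isoform i6 changed by -0.47 ± 0.10 (adjusted p = 0.00613), a call lost without control b. The delta14-sterol reductase, which acts directly on the demethylase product, had 1 of 2 transcripts lower (TRINITY_DN3405_c1_g1_i3, -0.35 ± 0.11, adjusted p = 0.0409), a call lost when any 1 library was left out. The delta8,7-sterol isomerase had 1 of 4 lower (TRINITY_DN16190_c0_g1_i1, -0.47 ± 0.11, adjusted p = 0.0112), not called without control a or without hypergravity b. The sterol C-22 desaturase, which forms stigmasterol, had 1 of 3 lower (TRINITY_DN31715_c0_g2_i1, -0.93 ± 0.23, adjusted p = 0.0149), not called without control b or without hypergravity b. The uncalled transcripts of the C-22 desaturase had log2 fold changes of -0.92 and -0.56, and all 3 were lower at an unadjusted p under 0.05. No transcript of sterol C-24 methyltransferase 2 (5 tested), 7-dehydrocholesterol reductase (3) or delta24-sterol reductase (2) was called. At an unadjusted p under 0.05 these had 1 lower, 1 higher and none. The most abundant transcripts of these lists were TRINITY_DN5531_c0_g2_i1 (-0.28 ± 0.15, adjusted p = 0.206), TRINITY_DN2558_c0_g1_i7 (0.20 ± 0.09, adjusted p = 0.142) and TRINITY_DN2013_c0_g1_i7 (-0.17 ± 0.10, adjusted p = 0.24). Without control a, 4 of the 5 methyltransferase 2 transcripts were called lower, and without hypergravity a 3 were.

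**Figure D3:**
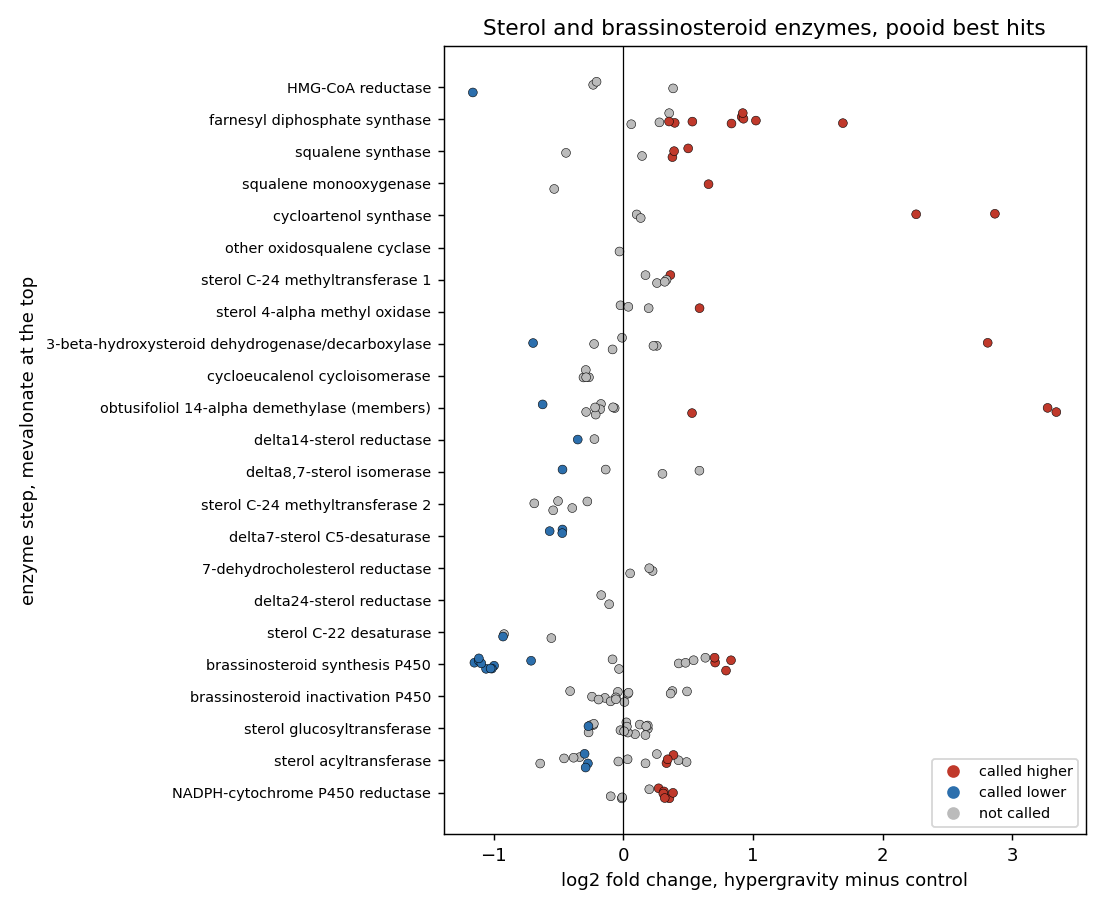
Log2 fold change (hypergravity minus control) of each transcript of the 22 enzyme lists and of the 11 members, 1 row per enzyme from the mevalonate route at the top to conjugation and the electron donor at the bottom, coloured by limma call, with a vertical offset within a row that carries no meaning. The points beyond 2 are the leading pair of demethylases, at 3.34 and 3.27, both cycloartenol synthase transcripts of TRINITY_DN90471_c0_g1 and TRINITY_DN9047_c0_g1_i2.

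Brassinosteroid synthesis, which draws on campesterol, was split by gene. Of 19 transcripts of its cytochrome P450 enzymes 9 fell and 4 rose, and without hypergravity b none rose and 8 fell. All 9 that fell were isoforms of a single assembled gene, TRINITY_DN13925_c0_g1, named CYP724B1, whose relative in rice hydroxylates early intermediates of the hormone. Its isoform i10 had 228 and 233 normalised counts in hypergravity, against 532 and 493 in control (-1.15 ± 0.12, adjusted p = 0.0001), and isoform i17 changed by -1.11 ± 0.18 (adjusted p = 0.00138). All 4 that rose were named cytochrome P450 85A1-like, for the late oxidation that yields active hormone, and came from 2 genes whose 6 transcripts had log2 fold changes between 0.48 and 0.83. None of 14 transcripts of the CYP734A type, which inactivates the hormone, was called, also at an unadjusted p under 0.05. The most abundant, TRINITY_DN13946_c0_g1_i1, changed by 0.03 ± 0.09 (adjusted p = 0.834). Without control b 1 of the 14 was called higher, and without control a or without hypergravity a 1 was called lower.

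NADPH-cytochrome P450 reductase passes electrons to CYP51 and to other P450 enzymes. Of 10 transcripts 6 rose and 0 fell, where 13.2% of all pooid transcripts were called higher and 13% lower. None of the 10 fell at an unadjusted p under 0.05, and all 6 that rose were isoforms of TRINITY_DN3758_c0_g1, which share reads. Its isoform i4 had 3146 and 3245 normalised counts in hypergravity, against 2446 and 2455 in control (0.38 ± 0.08, adjusted p = 0.00821), and isoform i13 changed by 0.35 ± 0.08 (adjusted p = 0.0118). Without control a or without control b 0 of the 10 were called, and without hypergravity b 3 were. Sterol conjugation had 3 of 32 transcripts higher and 4 lower. Of its 16 glucosyltransferase transcripts 1 fell (TRINITY_DN15292_c0_g1_i9, -0.27 ± 0.09, adjusted p = 0.0497). That call was lost without control a, without control b and without hypergravity a. The acyltransferase pattern also took lecithin-cholesterol acyltransferase-like proteins, and of its 16 transcripts 3 rose and 3 fell. Those that fell, picked out after their values were seen, were all of TRINITY_DN22720_c0_g2, named lecithin-cholesterol acyltransferase-like 4. Their log2 fold changes lay between -0.30 and -0.27. Those that rose were all named phospholipid-sterol O-acyltransferase (TRINITY_DN4950_c0_g1), led by i4 at 0.39 ± 0.11 (adjusted p = 0.0244) and i8 at 0.34 ± 0.10 (adjusted p = 0.0294). The calls of i4 and i8 were both lost without control a and without hypergravity b, and that of i8 also without control b. Over both conjugation lists 0 rose without control a or without hypergravity b, and the count that fell ranged between 0 without control b and 6 without hypergravity b.

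The leading pair stood at the upper end of the cytochrome P450 superfamily. It had been singled out for its difference in these same libraries, so its ranks are a description and no support is drawn from them. Among 434 transcripts with a listed cytochrome P450 domain and a pooid best hit, the pair ranked 1 and 2 by log2 fold change. The 424 outside the family had a median of -0.07 and lay between -0.97 and 0.79 at the tenth and ninetieth percentile. Of these 424, 78 were called higher and 96 lower, where 13.2% of all pooid transcripts were called higher and 13% lower. The highest outside the family, a cytochrome P450 71D11-like transcript (TRINITY_DN15586_c0_g1_i4), stood at 2.26 ± 0.18, with 235 and 233 normalised counts in hypergravity against 51.3 and 45.1 in control. The lowest, a cytochrome P450 78A9-like transcript (TRINITY_DN12328_c0_g1_i2), stood at -1.83 ± 0.21.

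**Figure D4:**
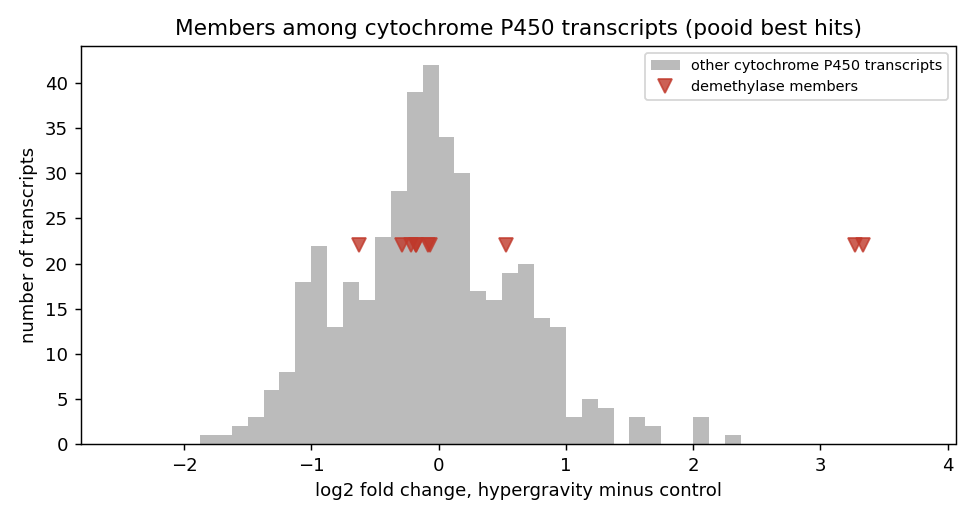
Number of cytochrome P450 transcripts with a pooid best hit by log2 fold change (hypergravity minus control), with the 424 outside the demethylase family as grey bars and the 10 members that carry the listed domain as red triangles at an arbitrary height. The leading pair at 3.34 and 3.27 lies to the right of the highest grey bar, which holds a transcript at 2.26, and the other 8 triangles lie between -0.62 and 0.53.

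The transcripts most like the pair over the 4 libraries were searched for outside the family. Likeness was the Euclidean distance over the 4 libraries between log2 values centred on the control mean, among pooid best hits outside the family and with 1 transcript per assembled gene. The distance between the members of the pair was 0.11, below that of either to any gene in this search. Both had been singled out for a large difference in these same libraries, so no support is drawn from their closeness. The nearest to TRINITY_DN1703_c0_g1_i1 was TRINITY_DN828_c0_g1_i5, an uncharacterised protein, at 0.14, with 697 and 772 normalised counts in hypergravity against 69.0 and 66.7 in control. It was followed by a cystathionine gamma-synthase 1 transcript (TRINITY_DN1078_c0_g1_i2) at 0.28 and a probable cystathionine gamma-synthase 2 (TRINITY_DN18538_c0_g1_i15) at 0.29, both for the enzyme at the entry to methionine synthesis. An RPM1-like immune receptor (TRINITY_DN5404_c0_g1_i3) at 0.32 and receptor like protein 42 (TRINITY_DN20469_c0_g1_i1) at 0.50 completed the 5. The same 5 transcripts were nearest to TRINITY_DN473_c0_g2_i1, at distances between 0.21 and 0.43. With 4 libraries in 2 groups, such a distance mostly expresses the size of the group difference.

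As for the series as a whole, recovered counts summed to 46604327 and 47850533 in hypergravity and 49424285 and 53346750 in control. Of the root markers searched, nicotianamine aminotransferases, high-affinity nitrate transporters and phosphate transporters were present. The list summed to 44585 and 37479 normalised counts in hypergravity and 47170 and 57414 in control. Deoxymugineic acid synthase and root cap names matched no pooid row, and the 3 rows of Casparian strip membrane proteins had no values per library. The green leaf list summed to 2363 and 2051 normalised counts in hypergravity and 1964 and 2060 in control, and no pooid row was named as the small subunit of Rubisco. Its markers did not move together. Photosystem II 10 kDa averaged 1493 in hypergravity and 1075 in control, and the 2 chlorophyll-binding names 124 and 385 in hypergravity and 87.6 and 386 in control. Rubisco activase averaged 67.9 in hypergravity and 188 in control, and oxygen-evolving enhancer 137 in hypergravity and 276 in control. The part of these differences in the results was not tested.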

How the data were processed

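RNA of 2 hypergravity and 2 control root libraries (stranded, paired-end mRNA) was sequenced, and the submitters' processing notes name RSEM without a version. No source used here names the assembler, aligner or filters. The authors deposited 1 value per transcript and group, called FPKM per the file headers. In 91482 rows with more than 2 decimals this deposited signal was the sum over both libraries of whole counts, each scaled by the size factor of its library. Each value had exactly 1 pair of whole counts within 1e-09 (next best at least 4.67e-07 away), and the size factors, 0.959 and 0.971 in hypergravity and 1.01 and 1.06 in control, equalled median-of-ratios factors of the recovered counts. The letters a and b follow the size factor, since nothing ties a library to a replicate number. The other 55815 rows were kept as deposited FPKM and described only. No recovered count was under 9, so transcripts absent from a library lie among those rows.

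Groups were compared by limma 3.58.1 in R 4.3.3 on log2 of scaled counts with 1 added as pseudocount, two-sided, with a trended eBayes prior and Benjamini-Hochberg adjustment over 91482 transcripts and a threshold of 0.05. The residual and prior degrees of freedom were 2 and 7.91. Fold changes on this scale understate changes of low transcripts. The fit was tested on simulated data with 1 level of replicate variation for all transcripts. It called 38 of 67 transcripts raised 1.5-fold, 58 of 67 raised 2-fold and 66 of 66 raised 4-fold, and 7 unchanged ones. A transcript not called can therefore still differ by a small amount. Members, enzyme lists and tests were chosen with earlier results of these data known. Named were all members and, per list, up to 2 called transcripts with the largest change, or the most abundant where none was called. Isoforms and the wheat subgenomes share reads. The alternatives were other pseudocounts, a minimum mean, other scaling, sums per assembled gene and leaving out each library.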

Additional observations from a re-analysis of the deposited data

Results flagged for a closer look

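Signal appeared in rows outside the tested values for 4 demethylase rows that are listed at 0 FPKM in control. In hypergravity TRINITY_DN473_c0_g3_i1 had 15.32 FPKM and TRINITY_DN473_c0_g1_i1 had 10.92 FPKM, both in the read cluster of a leading member. TRINITY_DN30887_c0_g1_i1 had 3.22 FPKM and TRINITY_DN46662_c0_g2_i1 had 1.36 FPKM in hypergravity. All 4 have best hits in sorghum or Panicum hallii, and with 1 value per group they have no replicate check.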

How the results depend on the processing

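Pseudocounts of 0.5 and 8, a mean of at least 50 and trimmed mean of M-values scaling kept every count over all transcripts, members and enzyme lists within 1.5 times. Sums per assembled gene, an alternative chosen after seeing the data, gave 6726 higher and 5799 lower of 47167 genes, 3 higher and 0 lower member genes, and 13 higher and 9 lower enzyme genes, with fewer units tested. With 1 library left out, the counts ranged between 8905 and 10635 higher and between 6983 and 10804 lower over all transcripts, between 2 and 3 higher and between 0 and 1 lower among members, and between 14 and 24 higher and between 12 and 24 lower in the enzyme lists. The lone library of a group was then assumed to vary like the other group. The log2 ratio of the family sum, 0.47, was 0.35 per kilobase, between 0.41 and 0.53 with 1 library left out and -0.0455 without the leading pair, the last also chosen after seeing the data. Of 24 called enzyme transcripts that are named, 11 were called in every fit with a library left out. With 1 library left out, the uncalled TRINITY_DN17344_c0_g1_i10 ranged between -0.149 and 0.0827 and TRINITY_DN13946_c0_g1_i1 between -0.00835 and 0.0745 (log2 fold change), both turning sign without hypergravity b. Planned count-model tests on the recovered whole counts were not run, so whether they would change a call is not known. No paired analysis was possible because the recovered libraries carry no replicate number. Depth limits low members, whose SE reached 0.20.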
